A study of Homo sapiens with 6 samples.

Results

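The genes described here are 10 genes of heme breakdown, iron storage and iron transport, taken as the rows whose symbol was HMOX1, HMOX2, BLVRA, BLVRB, FTH1, FTL, TFRC, SLC40A1, IREB2 or ACSL4. All 10 were present among the 28565 genes of the count table, and all 10 passed the filter on low counts among the 13389 genes tested. Expression was measured by RNA-seq in 6 libraries of the human cell line HK-2, derived from proximal tubules of the kidney. The compared groups were 24 h of exposure to cisplatin, a platinum drug that is toxic to tubules (3 libraries), and 0 h of exposure (3 libraries). Cells of both groups carried, by lipid transfection, a plasmid that overexpresses the long noncoding RNA named LncR2 in the titles, so the comparison is of cisplatin exposure in plasmid-carrying cells. Cells with a control plasmid were not analysed here, and cisplatin cannot be told apart from time after transfection.

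Heme oxygenases cut the heme ring into biliverdin, carbon monoxide and free iron, and biliverdin reductases turn biliverdin into bilirubin. The freed iron is stored in ferritin, a shell of heavy and light chains, or leaves the cell through ferroportin, while the transferrin receptor brings new iron in. In the kidney the proximal tubule handles filtered iron and heme, and heme oxygenase is a known protective enzyme in acute tubular injury. Iron that is not stored promotes lipid peroxidation, and the acyl-CoA synthetase encoded by ACSL4 supplies the polyunsaturated lipids that are oxidised in ferroptosis, a form of iron-dependent cell death. Iron regulatory proteins, among them the product of IREB2, bind a hairpin called the iron-responsive element. Binding in the 5′ untranslated region (UTR) blocks translation and binding in the 3′ UTR protects the RNA from decay.

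The iron-responsive elements are shown because they divide the 10 genes by the kind of control that a measurement of RNA level can see. A search of 1 GENCODE 29 transcript per gene for CNNNNNCAGTGN, on the RNA strand, with 5 paired bases on each side of the 6-base loop and a loop not ending in G, found a match in 4 of the 10 genes. The same search matched 169 of 19677 protein-coding genes, or 0.859%. FTH1, FTL and SLC40A1 had 1 match each in the 5′ UTR, TFRC had 4 in the 3′ UTR, and HMOX1, HMOX2, BLVRA, BLVRB, IREB2 and ACSL4 had 0. In the windows of 30 bases below, the capitals mark the bulged C and the 6 bases of the loop.
FTH1, chr11:61967573-61967602, minus strand: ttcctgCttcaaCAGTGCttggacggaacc
FTL, chr19:48965335-48965364, plus strand: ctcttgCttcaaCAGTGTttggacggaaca
SLC40A1, chr2:189580660-189580689, minus strand: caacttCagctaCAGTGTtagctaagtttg
TFRC first match, chr3:196050978-196051007, minus strand: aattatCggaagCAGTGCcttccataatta
TFRC second match, chr3:196050574-196050603, minus strand: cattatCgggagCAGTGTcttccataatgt
The remaining pair of TFRC matches lay at chr3:196050509-196050538 and chr3:196050462-196050491. All coordinates are those of GENCODE 29 on GRCh38, and a match is a run of letters, not evidence of binding in these cells.

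Total counts per library ran from 6022268 to 7248754 at 24 h and from 5028881 to 5844246 at 0 h. Of the kidney epithelial markers, PAX8, KRT8, KRT18 and CDH2 were abundant (for the first 3, means of 255 to 361 CPM at 24 h and 232 to 408 CPM at 0 h, where CPM is counts scaled to a common library total), whereas CDH1, AQP1, ANPEP and SLC34A1 had 0 to 5 counts summed over the libraries of each time. The 4 macrophage markers found in the table summed to 1.24 to 2.82 CPM at 24 h and 2.18 to 2.78 CPM at 0 h, and the 6 erythroid markers to 1.10 to 2.14 CPM at 24 h and 2.38 to 3.08 CPM at 0 h. Macrophages and erythroid cells are the classical iron-recycling and heme-making cells. Of the 8 tested epithelial markers and the 1 tested macrophage marker 0 passed the edgeR test (adjusted p of 0.238 or more). The library of 0 h replicate 3 stood apart from the rest on the second principal component (-30.4, against -5.27 to 15.9 at 24 h and -1.48 to 8.50 in the other 0 h libraries). On the first component it lay at 1.28, between the other 0 h libraries (-23.8 and -24.5) and the 24 h libraries (6.29 to 22.95). Calls that changed without it are given with and without it.

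After 24 h of cisplatin HMOX1 rose by 0.47 ± 0.10 on the log2 scale, a 1.39-fold higher level, and it was the only 1 of the 10 genes to pass the test, with 0 lower. At an unadjusted p under 0.05 there were 4 of the 10, against 18.1% of all genes, and DESeq2 called 2 higher (HMOX1 and ACSL4) and 0 lower. Across all genes 0.866% passed as higher and 2.08% as lower by edgeR, against 0.904% and 1.9% by DESeq2. Differences were tested with edgeR's quasi-likelihood test, with errors given as the standard error of the model, n = 3 libraries per group and p-values adjusted over all 13389 genes. ACSL4, FTL and BLVRB did not pass, although every 24 h library lay above every 0 h library for each of them, as for HMOX1. These 4 of 10 genes with separate groups compare with 10.9% of all genes tested whose 24 h libraries all lay above the 0 h libraries, and 0 of 10 were separate in the other direction, against 11.7% of all genes. The median log2 fold change of the 10 genes was 0.17, against 0.00 for all genes tested. Fewer cells of a kind and less RNA per cell cannot be told apart in these bulk libraries.

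**Figure D1:**
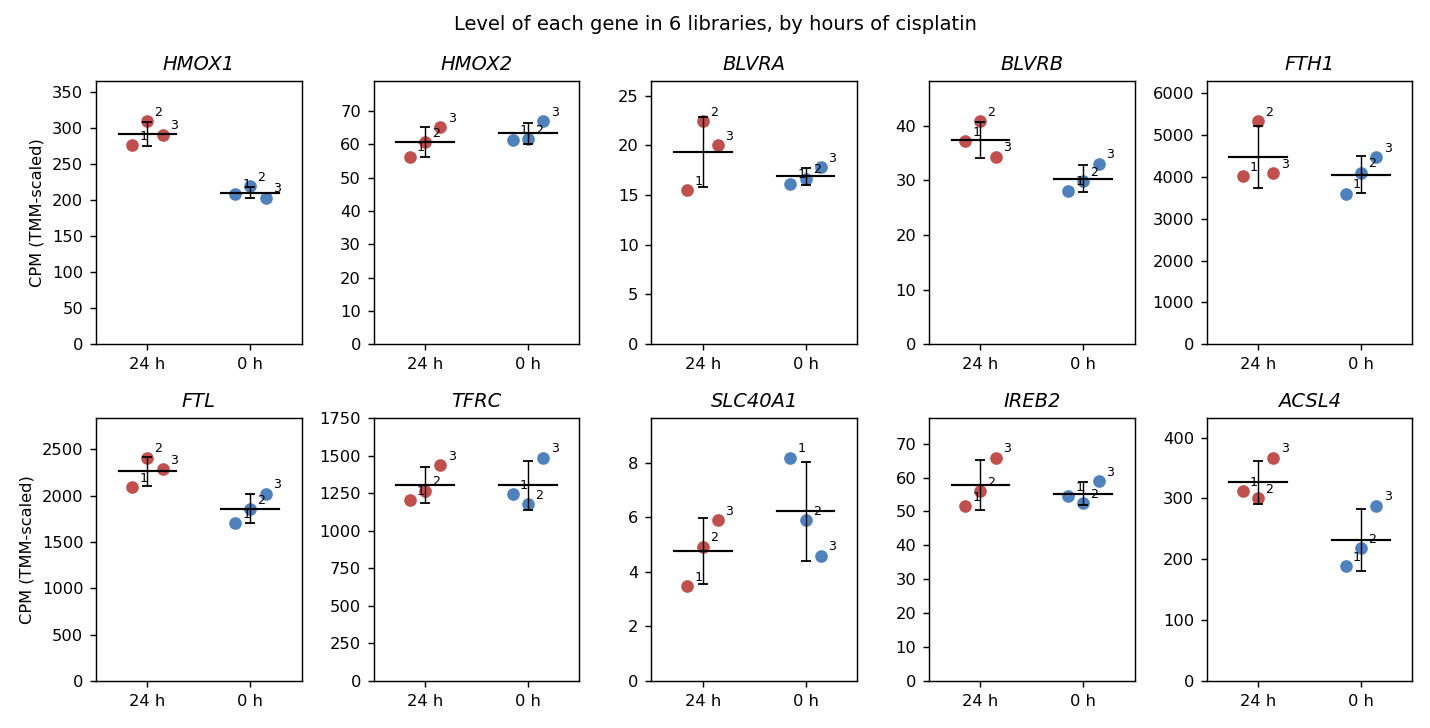
Level of each of the 10 genes in CPM (y axis, from 0) in the 3 libraries at 24 h (red) and the 3 at 0 h (blue), numbered by replicate, with the mean (bar) and SD (whiskers). HMOX1 ran from 276 to 309 CPM at 24 h, above the 203 to 219 CPM at 0 h, while TFRC averaged 1301 CPM at both times.

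On the authors' FPKM scale, which divides counts by gene length, the ferritin heavy chain FTH1 averaged 1846 ± 365 at 24 h and 1413 ± 154 at 0 h, and the light chain FTL 1715 ± 220 at 24 h and 1193 ± 102 at 0 h (SD, n = 3 each). The ranges of the ferritin chains overlapped at both times. Within a library FTH1 was above FTL in every 0 h library (ratios of 1.15, 1.203 and 1.201). At 24 h the order was mixed (1.05, 1.203 and 0.971). The chains ranked 15 and 22 among all genes of the FPKM table by mean level. TFRC was next with 163 ± 24.6 FPKM at 24 h and 138 ± 16.5 FPKM at 0 h, followed by HMOX1 with 107 ± 11.96 FPKM at 24 h and 65.1 ± 2.95 FPKM at 0 h. ACSL4 had 40.7 ± 6.33 FPKM at 24 h and 24.4 ± 5.35 FPKM at 0 h, and BLVRB 28.5 ± 2.99 FPKM at 24 h and 19.6 ± 1.59 FPKM at 0 h. Their ranges were apart at 24 h and overlapped at 0 h. HMOX2 (12.7 ± 1.72 FPKM at 24 h and 11.2 ± 0.522 FPKM at 0 h) and BLVRA (11.1 ± 2.58 FPKM at 24 h and 8.15 ± 0.406 FPKM at 0 h) overlapped at 24 h and were apart at 0 h. IREB2 had 4.07 ± 0.751 FPKM at 24 h and 3.28 ± 0.180 FPKM at 0 h. The lowest was SLC40A1, the only known cellular iron exporter, with 0.930 ± 0.292 FPKM at 24 h and 1.02 ± 0.293 FPKM at 0 h. FPKM values at 24 h and 0 h are not set against each other here, because with the totals behind them the median log2 fold change over all genes tested was higher by 0.24 than with TMM scaling, edgeR's default.

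HMOX1 is the inducible heme oxygenase, and it lies on chromosome 22 from 35380361 to 35394214 (ENSG00000100292.16, 5 exons in a transcript of 1822 bases). Its level was 276, 309 and 290 CPM in the 24 h libraries, against 209, 219 and 203 CPM in the 0 h libraries. The groups did not overlap, and the gap between them was larger than the range within either. At 24 h the mean was 292 ± 16.8 CPM, against 210.4 ± 7.97 CPM at 0 h (SD, n = 3 each), with a 95% interval of the log2 fold change from 0.27 to 0.68 (adjusted p = 0.0147). The call was lost without 24 h replicate 2 (adjusted p = 0.119), 24 h replicate 3 (adjusted p = 0.0617) or 0 h replicate 2 (adjusted p = 0.0716), fits that called 0.153%, 0.38% and 0.176% of all genes higher, while the log2 fold change stayed between 0.43 and 0.51 in all 6 fits that left out 1 library. Over 17 alternatives the adjusted p ran from 2.17e-04 to 0.119, and 14 kept the call.

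HMOX2, the constitutive heme oxygenase, measured 56.2, 60.6 and 65.1 CPM at 24 h, against 61.4, 61.5 and 66.9 CPM at 0 h. The groups overlapped. Its log2 fold change was -0.06 ± 0.11 with an interval from -0.29 to 0.17, so a rise as large as that estimated for HMOX1 lay outside it, and under scaling by the FPKM totals it was 0.18. HMOX2 shares its span with NMRAL1 on the other strand, and the use of strand in counting is not given in the sources used here, so its counts are uncertain.

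The ratio of the 2 heme oxygenases in the same library does not depend on how libraries are scaled, but it carries the uncertainty of the HMOX2 counts. HMOX1 was 8.59, 8.94 and 7.82 times as high as HMOX2 in FPKM at 24 h, against 5.97, 6.24 and 5.32 times at 0 h. The groups were apart, 0 h replicate 3 had the lowest ratio, and the change was 0.53 on the log2 scale (exact two-sided permutation p = 0.1, the smallest that 3 libraries against 3 allow, and 0.3 after adjustment over 6 such ratios). Without 1 library the difference ran from 0.47 to 0.59.

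Biliverdin reductases act next in the pathway. BLVRB, which reduces biliverdin IXβ and flavins, measured 37.1, 40.8 and 34.3 CPM at 24 h, against 28.1, 29.8 and 33.01 CPM at 0 h. All 24 h libraries were above all 0 h libraries, though the lowest 24 h value and the highest 0 h value were close. The log2 fold change of 0.30 ± 0.13 did not pass (adjusted p = 0.213, 0.0126 to 0.534 over alternatives), and it passed only under the FPKM-based scalings, where 12.2% to 17.6% of all genes were called higher. BLVRA, which reduces biliverdin IXα to bilirubin, measured 15.5, 22.4 and 20.02 CPM at 24 h, against 16.1, 16.7 and 17.8 CPM at 0 h. Its groups overlapped through 24 h replicate 1, the lowest of the 6 libraries, and the log2 fold change was 0.20 ± 0.16 (adjusted p = 0.566), 0.33 without that library and 0.08 without 24 h replicate 2. The ratio of BLVRB to BLVRA averaged 2.64 ± 0.490 at 24 h and 2.40 ± 0.0751 at 0 h and overlapped (exact permutation p = 0.7).

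FTH1, the ferroxidase chain that oxidises iron for storage, measured 4023, 5332 and 4085 CPM at 24 h, against 3595.5, 4098 and 4467 CPM at 0 h. The groups overlapped, and only 24 h replicate 2 lay above the whole 0 h group. The log2 fold change was 0.14 ± 0.14 with an interval from -0.15 to 0.44 (adjusted p = 0.635). Without 24 h replicate 2 it was 0.0028 ± 0.14 and without 0 h replicate 1 it was 0.07 ± 0.14, against 0.22 ± 0.13 without 0 h replicate 3. FTH1 has many processed pseudogenes, of which 12 were rows of the table, with counts of 0.163% of those of FTH1 at 24 h and 0.218% at 0 h. How reads shared with them were assigned is not given in the sources used here.

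FTL, the chain that promotes mineral formation inside the shell, measured 2088, 2406 and 2284 CPM at 24 h, against 1703, 1850 and 2020 CPM at 0 h. The groups were apart by a small margin, set by 24 h replicate 1 and 0 h replicate 3. The log2 fold change of 0.28 ± 0.11 had an interval from 0.04 to 0.53 and did not pass (adjusted p = 0.202). Without 0 h replicate 3 it was 0.35 and passed (adjusted p = 0.0469), in a fit that called 4.18% of all genes higher. The ratio of FTH1 to FTL was 1.05, 1.203 and 0.971 at 24 h, against 1.15, 1.203 and 1.201 at 0 h, and it overlapped (exact permutation p = 0.4). Because FTH1 and FTL carry their hairpin in the 5′ UTR, where binding is known to act on translation, these RNA levels do not report ferritin protein.

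**Figure D2:**
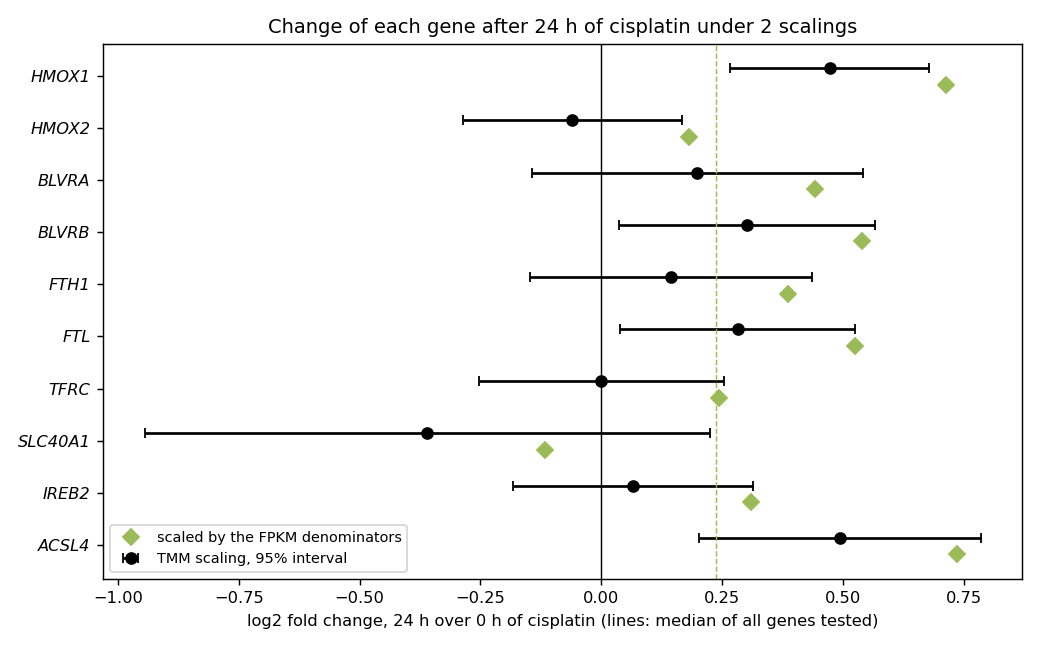
Log2 fold change of each gene, 24 h over 0 h (x axis), with TMM scaling and its 95% interval (black) and with the authors' FPKM totals as scaling (green diamonds); lines mark the median of all genes tested under each, 0.00 and 0.24. Every diamond lies about 0.24 to the right of its black point, and the order of the genes by log2 fold change is nearly the same under both.

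The transferrin receptor TFRC, which takes up iron-loaded transferrin, measured 1203, 1267 and 1434 CPM at 24 h, against 1243, 1176 and 1484 CPM at 0 h. The groups overlapped fully, and both replicates numbered 3 were the highest of their group. The log2 fold change was 0.00 ± 0.12 with an interval from -0.25 to 0.25, which leaves out a rise of the size seen for HMOX1. TFRC is the only gene of the 10 with 3′ UTR hairpins, of which 4 matched the search.

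SLC40A1, which encodes ferroportin, had 21, 34 and 43 counts at 24 h and 41, 30 and 26 counts at 0 h. Scaled, these were 3.46, 4.92 and 5.90 CPM at 24 h, against 8.17, 5.88 and 4.59 CPM at 0 h. The groups overlapped, and the log2 fold change of -0.36 ± 0.28 had an interval from -0.94 to 0.22, the widest of the 10 genes at these low counts. Leaving out 0 h replicate 1 gave -0.12 ± 0.30, and leaving out 24 h replicate 1 gave -0.19 ± 0.29. The estimate was -0.55 ± 0.31 when 24 h replicate 3 was dropped, -0.54 ± 0.28 when 0 h replicate 3 was dropped, and -0.73 ± 0.30 when both were (adjusted p = 0.143 or more in each of these 5 fits). The FPKM of TFRC was 224, 167 and 157 times that of SLC40A1 at 24 h, against 98.5, 129.5 and 209 times at 0 h, and the ratios overlapped (exact permutation p = 0.4).

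IREB2 encodes iron regulatory protein 2, which binds the hairpins when iron is scarce and is degraded when iron is plentiful. It measured 51.6, 56.0 and 65.8 CPM at 24 h, against 54.4, 52.5 and 58.96 CPM at 0 h, and the groups overlapped. Its log2 fold change was 0.07 ± 0.12 with an interval from -0.18 to 0.31. ACO1, the other iron regulatory protein and the cytosolic aconitase, measured 144, 124 and 135 CPM at 24 h, against 132, 113 and 111 CPM at 0 h (0.18 ± 0.10, adjusted p = 0.382). The ratio of IREB2 to ACO1 averaged 0.344 ± 0.0527 at 24 h and 0.374 ± 0.0477 at 0 h (exact permutation p = 0.6).

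ACSL4 had the largest estimate of the 10 genes, a log2 fold change of 0.49 ± 0.14, but did not pass (adjusted p = 0.0665, interval from 0.20 to 0.78). It measured 312, 300 and 367 CPM at 24 h, against 189, 218 and 288 CPM at 0 h. The groups were apart, and 0 h replicate 3 lay close below the lowest 24 h library. Without that library the log2 fold change was 0.69 ± 0.11 (adjusted p = 3.29e-06), in a fit that called 4.18% of all genes higher. Without both libraries numbered 3 it was 0.59 ± 0.10 (adjusted p = 0.00103, with 2.28% of all genes called higher). Over 17 alternatives 8 called ACSL4. Among them were the replicate block, which called 5.52% of all genes higher, and the FPKM-based fits, which called 12.2% to 17.6% higher. DESeq2 also called ACSL4 (adjusted p = 0.0288, 0.904% of all genes called higher), whereas leaving out any 1 library other than 0 h replicate 3 gave adjusted p from 0.114 to 0.288.

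Set against ACSL3, a paralog that prefers other fatty acids, ACSL4 had separate groups. The ratio of ACSL4 to ACSL3 was 2.22, 2.13 and 2.29 at 24 h, against 1.42, 1.59 and 1.66 at 0 h. On this scale 0 h replicate 3 lay with the other 0 h libraries, since ACSL3 was also highest there, at 185 CPM against 141 and 146 CPM in the other 0 h libraries. The difference was 0.51 on the log2 scale (exact two-sided permutation p = 0.1, the smallest possible, 0.3 after adjustment over the 6 ratios) and ran from 0.45 to 0.56 when 1 library was left out. ACSL3 itself had a log2 fold change of -0.01 ± 0.12.

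**Figure D3:**
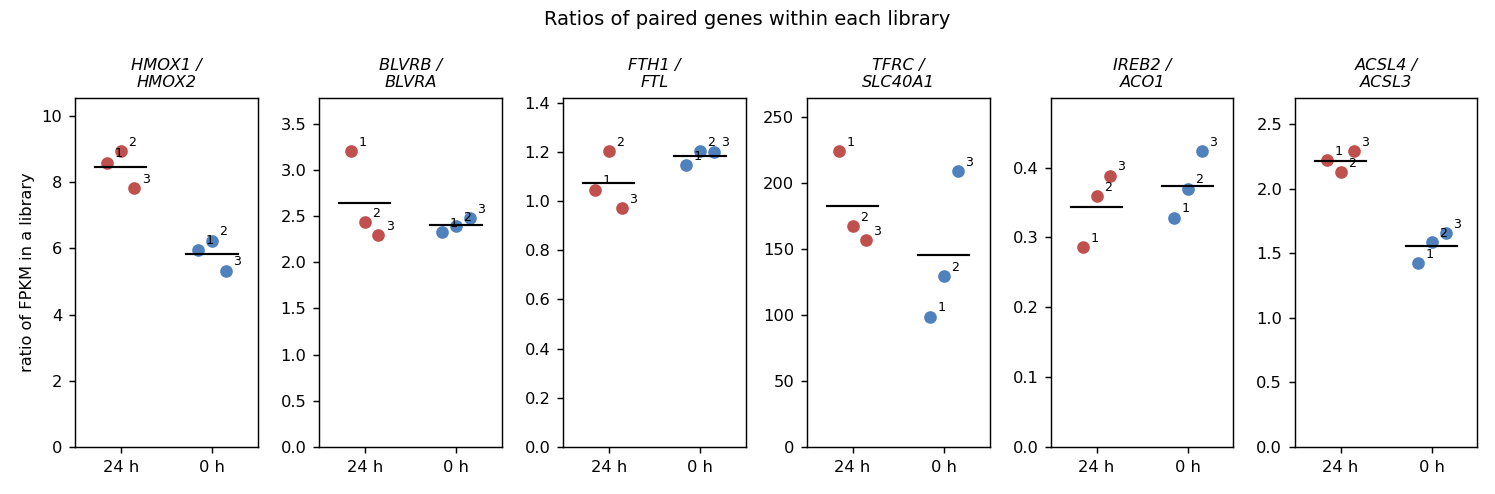
Ratio of FPKM of 2 genes within each library (y axis, from 0) for the 6 pairs, at 24 h (red) and 0 h (blue), numbered by replicate, with the mean as a bar. The ratios of HMOX1 to HMOX2 (7.82 to 8.94 at 24 h, 5.32 to 6.24 at 0 h) and of ACSL4 to ACSL3 (2.13 to 2.29 at 24 h, 1.42 to 1.66 at 0 h) were apart, and the other 4 overlapped.

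**Figure D4:**
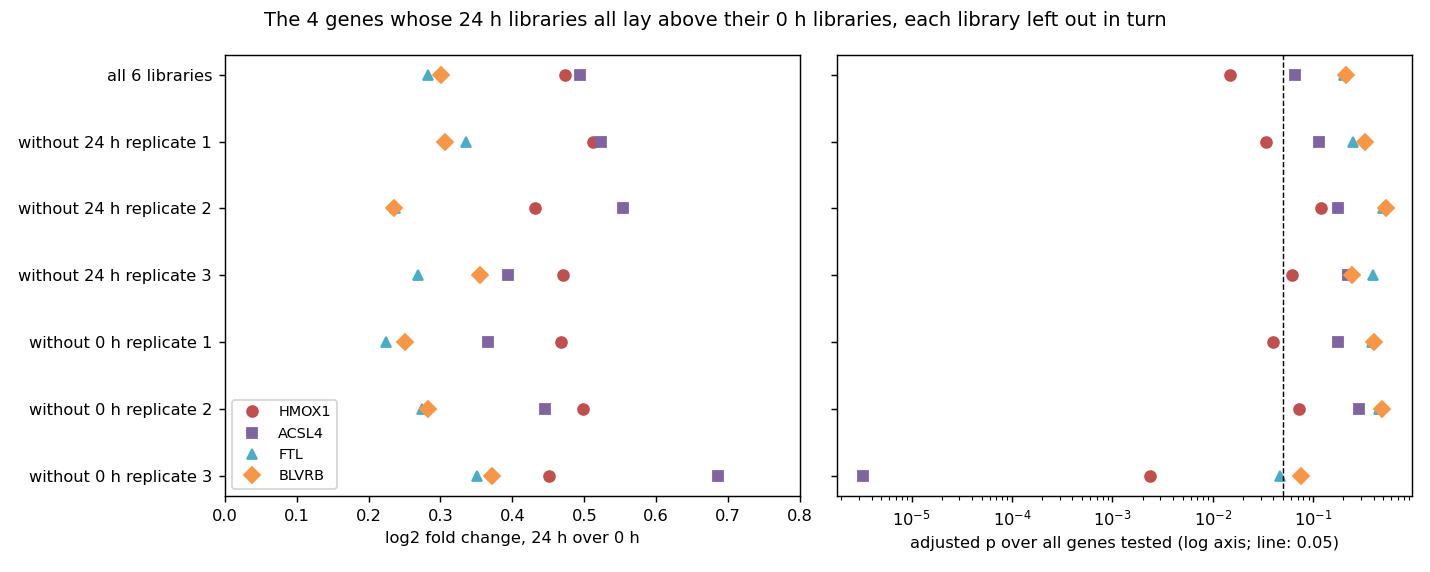
Log2 fold change (left, 24 h over 0 h) and adjusted p over all genes tested (right, log axis, dashed line at 0.05) of HMOX1, ACSL4, FTL and BLVRB with all 6 libraries and with each left out. HMOX1 stayed near its value of 0.47 and crossed the line in 3 of the 6 fits, and without 0 h replicate 3 ACSL4 moved to 0.69 and an adjusted p of 3.29e-06.

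Genes whose profile over the 6 libraries was most like that of HMOX1 were named by the Pearson correlation of log2 CPM among 10684 protein-coding genes of at least 5 CPM. They were FICD, an endoplasmic reticulum enzyme that modifies the chaperone BiP (0.996), PEF1, a calcium-binding protein (0.994), JMJD4 (0.986), RASSF2 (0.985) and CTXN1 (0.984). None of these 5 passed the test by edgeR, with log2 fold changes from 0.26 to 0.51 and adjusted p from 0.0524 to 0.160. With 6 libraries in 2 groups such correlations are a description. Among the 10 genes, the correlation of HMOX1 with FTL was 0.86, with BLVRB 0.84 and with ACSL4 0.71, and that with TFRC was -0.05.

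The wider heme and iron lists held 83 genes, of which 78 were in the table and 66 were tested. Of the 66, 1 rose and 0 fell, against 0.866% and 2.08% of all genes, and 14 had an unadjusted p under 0.05, against 18.1% of all genes. By edgeR and by DESeq2 alike 1 gene was called higher and 0 lower. The median log2 fold change of the 66 was 0.07. Without 0 h replicate 3, 6 of the 66 were called higher and 2 lower, against 4.18% and 6.72% of all genes. The gene that rose was ABCB6, a porphyrin transporter of mitochondria and other membranes, with 31.2, 31.0 and 25.8 CPM at 24 h, against 17.1, 19.8 and 15.7 CPM at 0 h. Its groups were well apart, with a log2 fold change of 0.74 ± 0.15 (adjusted p = 0.0112), and the call held in 5 of the 6 fits without 1 library and was lost without 24 h replicate 2.

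In the list of heme transport, 1 of 8 tested genes rose and 0 fell. An unadjusted p under 0.05 was found for 4 of the 8, against 18.1% of all genes. PGRMC2, a heme chaperone, did not pass at 0.28 ± 0.11, and FLVCR1, a heme exporter, stood at -0.25 ± 0.11 (adjusted p = 0.172 and 0.252). Without 0 h replicate 3 PGRMC2 was called, at 0.36 ± 0.11 (edgeR adjusted p = 0.0296). Of 9 tested genes of heme synthesis 0 passed, 2 had an unadjusted p under 0.05, and 7 had a log2 fold change above 0, with a median of 0.21. ALAS1, the rate-limiting enzyme outside red cells, measured 77.7, 82.6 and 90.9 CPM at 24 h, against 74.2, 58.0 and 67.8 CPM at 0 h (0.33 ± 0.11, adjusted p = 0.134). Without 0 h replicate 3 it was called, at 0.35 ± 0.12 (adjusted p = 0.0435). ALAS1 was 1 of 4 genes among these 9 whose 24 h libraries all lay above the 0 h libraries, against 10.9% of all genes in that direction. Over the 66 genes of all lists, 12 were separate in that direction and 5 in the other, against 10.9% and 11.7% of all genes.

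Iron import genes did not pass either, 0 of 9 with 1 at an unadjusted p under 0.05, and their median was -0.07. LCN2, the siderophore-binding tubular injury protein, was at -0.33 ± 0.14 (adjusted p = 0.215), and was called lower without 0 h replicate 3, at -0.46 ± 0.12 (adjusted p = 0.00641). STEAP3, a ferrireductase of endosomes, was at -0.17 ± 0.12. SLC11A2, the endosomal iron transporter DMT1, was at 0.01 ± 0.10 with 83.6 ± 1.74 CPM at 24 h and 82.9 ± 4.16 CPM at 0 h (SD, n = 3 each). Of the list of iron export and its control 3 of 8 genes found were tested and 0 passed, with 1 at an unadjusted p under 0.05. BMP2, a growth factor that can induce hepcidin, was at -0.47 ± 0.16 with separate groups (adjusted p = 0.120), and was called lower without 0 h replicate 3, at -0.56 ± 0.18 (adjusted p = 0.0259). HFE, a partner of the transferrin receptor, was at 0.14 ± 0.16.

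Of 5 tested genes of iron storage and sensing 0 passed and 0 had an unadjusted p under 0.05. PCBP1, a chaperone that delivers iron to ferritin, measured 270 ± 3.81 CPM at 24 h and 236 ± 8.17 CPM at 0 h (0.20 ± 0.09, adjusted p = 0.284), and NCOA4, the receptor that sends ferritin to lysosomes, was at -0.18 ± 0.12. Of 12 tested genes of mitochondrial iron and iron-sulfur clusters 0 passed and 2 had an unadjusted p under 0.05, with the cysteine desulfurase NFS1 at -0.40 ± 0.17 and the mitochondrial iron importer SLC25A28 at 0.29 ± 0.14.

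Among 8 tested regulators of HMOX1 0 passed and 1 had an unadjusted p under 0.05. MAFK, a small MAF partner of NRF2 and BACH1, was at 0.33 ± 0.12 (adjusted p = 0.154). NFE2L2, which encodes the activator NRF2, measured 206, 204 and 215 CPM at 24 h, against 219, 244 and 254 CPM at 0 h, a log2 fold change of -0.20 ± 0.10 (adjusted p = 0.303). BACH1, which encodes the heme-sensitive repressor, was at 0.11 ± 0.10. Of 12 tested genes of lipid peroxidation and ferroptosis 0 passed and 3 had an unadjusted p under 0.05, with POR, a donor of electrons to cytochromes P450, at 0.31 ± 0.11, SAT1, of polyamine breakdown, at 0.30 ± 0.12 and GPX4, which reduces lipid peroxides, at -0.05 ± 0.10. Without 0 h replicate 3 SAT1 was called higher, at 0.44 ± 0.11 (adjusted p = 0.00421). In these 8 lists the values of genes that did not pass are estimates and not changes.

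**Figure D5:**
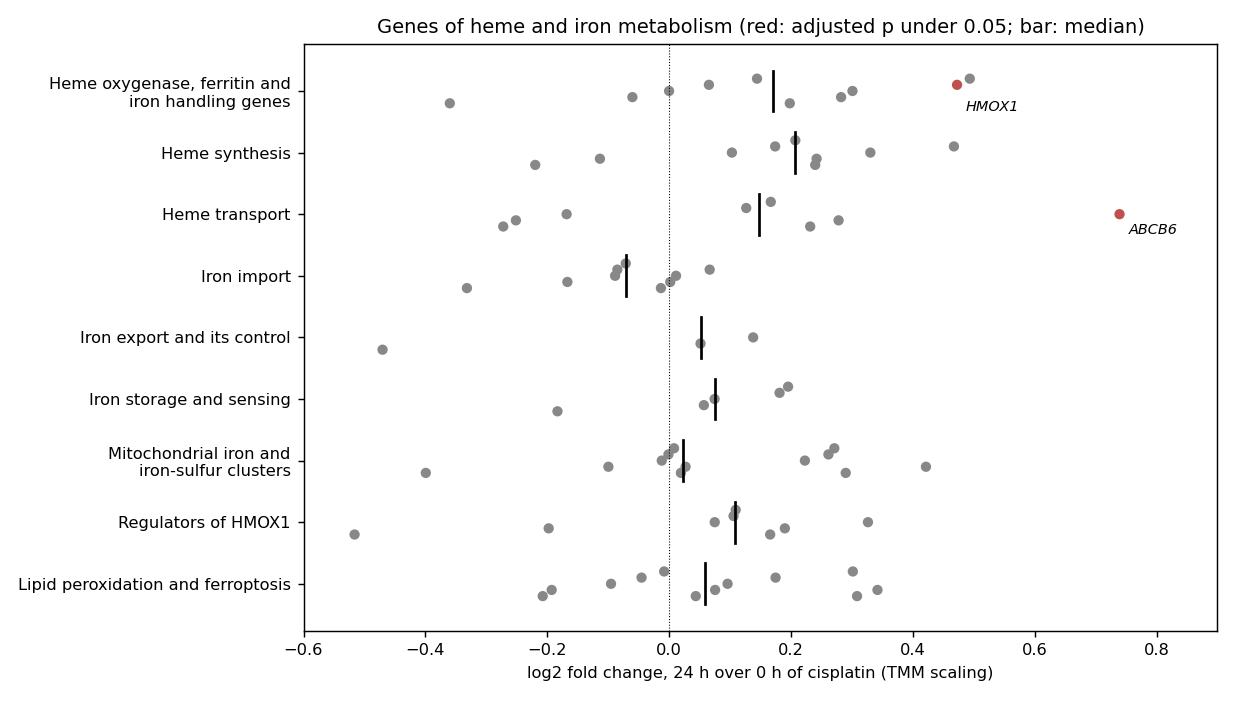
Log2 fold change, 24 h over 0 h (x axis, TMM scaling), of the 10 genes (top row) and of the tested genes of each wider list, 1 point per gene, with the median as a bar and genes with an adjusted p under 0.05 in red. HMOX1 (0.47) and ABCB6 (0.74) are the red points, and the list medians lie between -0.07 and 0.21.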

How the data were processed

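The authors deposited raw read counts and FPKM per gene for 6 libraries. The deposited counts were whole numbers for 28565 genes, and the deposited FPKM values covered 28561 genes and were rounded to hundredths. Per the labels' protocols, rRNA-depleted directional libraries were sequenced as paired ends. Per the submitters' processing notes, the tools were edgeR, TopHat2 and bcl2fastq and the build GRCh38, while the sources used here name no counter, annotation release or use of strand.

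Counts were tested with edgeR 4.0.16 (quasi-likelihood, TMM, filterByExpr, R 4.3.3) on all 6 libraries, with Benjamini-Hochberg adjustment over 13389 genes and a threshold of 0.05. CPM use TMM-scaled totals, except for marker lists, which use plain totals. Ratios of FPKM were compared by exact permutation tests (scipy 1.17.1). Alternatives were DESeq2 1.42.0, limma 3.58.1 on log2(FPKM + 1) and log2(FPKM + 0.1), other scalings and filters, a replicate block, and libraries left out. FPKM denominators, the totals behind the authors' FPKM, were recovered relative to each other from count over FPKM in 3572 genes above 300 counts in every library. The fit was also run on simulated data with 200 changed genes, and the outcome is not reported here.

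Gene positions come from GENCODE 29, which matched 97.8% of identifiers, with the same version for 8 of the 10 genes (BLVRB and FTL differed). Members, lists and tests were chosen with earlier results of these data known. Genes named from a list were those called, the pair with the smallest p (1 gene that this rule names is not reported here), and partners in ratios; FLVCR1, SLC11A2, NCOA4, BACH1 and GPX4 were chosen after their values were seen. Replicate libraries differed by more than sampling noise (chi-square per gene of 3.94 to 10.7). The labels do not say that replicates came from separate cultures, and the series' design text speaks of 2 replicates, so p-values measure only how these libraries vary, which may be technical.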

Additional observations from a re-analysis of the deposited data

How the results depend on the processing

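The direction of all 10 genes and the ratios held except as follows. HMOX2 turned positive with the FPKM denominators (0.18), limma on log2(FPKM + 1) (0.16) and limma on log2(FPKM + 0.1) (0.17). TFRC, at 0.00, turned to -0.0092 with at least 10 counts in every library and to -0.0821, -0.0316 and -0.0726 without 24 h replicate 3, 0 h replicate 1 and 0 h replicate 2; its range without 1 library was -0.0821 to 0.1087. IREB2 (0.07) turned to -0.0455 without 24 h replicate 3 and ranged up to 0.1397. Without 24 h replicate 1 the BLVRB to BLVRA ratio (0.12) turned to -0.0222, with a range up to 0.2194, and the IREB2 to ACO1 ratio (-0.12) turned to 0.0056, with a range down to -0.2154. The cause was not tested for any of these.

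Of the 10 genes, 1 was called higher, and the count was 4 with the FPKM denominators, 2 with no filter on low counts or DESeq2, 3 by limma with either pseudocount, 2 without both libraries numbered 3, and 0 to 3 without 1 library. Of the 66 other heme and iron genes, 1 was called higher, against 22 with the FPKM denominators, 18 and 19 by limma with pseudocounts of 1 and 0.1, 3 without both libraries numbered 3, and 0 to 6 without 1 library. Calls lower were 0, against 2 without both libraries numbered 3 and 0 to 2 without 1 library. Over all genes, 116 were called higher and 278 lower, against 2354 higher with the FPKM denominators, 345 higher with no filter, 1657 higher and 138 lower, or 1632 and 136, by limma with the 2 pseudocounts, 306 and 539 without both libraries numbered 3, and 21 to 574 higher and 92 to 923 lower without 1 library.

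Whether replicate numbers pair the libraries is not settled. Deviations of same-numbered libraries from their group means correlated at 0.24, -0.02 and 0.42. Those of libraries with unlike numbers correlated at -0.37 to 0.23. With the replicate block 3 of the 10 genes (HMOX1, FTL and ACSL4) and 6 of the other heme and iron genes were called higher and 2 of the others lower, with 739 genes higher and 959 lower in all. Depth limits SLC40A1 most, at 21 to 43 counts per library.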
